A study of Mus musculus with 4 samples.

Results

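The 31 genes described here encode gut hormones, proteins of hormone granules and the transcription factors of enteroendocrine cells, out of 17762 genes listed in at least 1 of 4 RNA libraries. They were taken by symbol, with earlier results of these data known. Every one of the 31 was listed in at least 1 library, 29 of them in all 4. The libraries were made from polyadenylated RNA of adenomas of C57BL/6 mice aged 110 days, all of them ApcMin, heterozygous for an Apc mutation that gives intestinal tumours. In 2 libraries the gene Strap, whose product is a WD-repeat protein that binds TGF-beta receptors, was labelled wild type (WT), and in 2 it was labelled knockout (KO). The design text writes the KO mice as StrapIEKO. The sources used here give neither the driver of the deletion nor its extent, and do not say whether a library is 1 animal or a pool. The spread behind each p value is that between these libraries, which within each genotype also differ in Xist and Y-linked transcripts.

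Enteroendocrine cells are scattered hormone-secreting cells of the intestinal epithelium. They arise from crypt progenitors that switch on Neurog3 for a short time, followed by Neurod1, Insm1, Nkx2-2, Rfx6, Pax4, Pax6, Isl1 and Fev, and then store peptides or serotonin in dense-core granules built with chromogranins and secretogranins. Which hormone a cell makes depends on its lineage and on its place along the gut: Gip and Cck are mainly proximal, Nts and Pyy mainly distal, and Insl5 is a hormone of the colon. Because these cells are few, bulk RNA cannot tell fewer cells of a type from less RNA per cell, and this holds for every value below.

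Total expected counts, the read numbers that the RSEM program estimates per gene, lay between 14084814 and 15640931 per library. The targeted gene, Strap, had 2445 and 1724 expected counts in WT and 300 and 364 in KO (here and below replicate 1 comes before replicate 2), which left 16.9% of the WT level (edgeR log2 fold change -2.57, SE 0.26, adjusted p = 0.0942). Over all 12769 tested genes edgeR called 1 higher in KO and 0 lower at an adjusted p under 0.05. With p unadjusted, the same cut found 904 above and 1109 below WT, and DESeq2 called 235 and 432. Xist had 967 CPM (counts scaled to library size) in WT replicate 1 and 197 in KO replicate 1, and below 1 CPM in each replicate 2. The Y-linked Ddx3y had 603 and 489 counts in WT and KO replicate 2 and was not listed in either replicate 1. The tissue is labelled colon adenoma, and the extraction text speaks of intestinal adenomas. Small-intestinal marker genes summed to between 8463 and 15050 FPKM (fragments per kilobase of transcript, scaled to library size), and the 5 colonic markers to between 91.4 and 240 FPKM. Nearly all of the colonic sum was Car4, at 86.7 to 240 FPKM, while Car1 was at most 3.81 FPKM, Aqp8 was at most 0.59 FPKM, and Hoxb13 and Hoxd13 were listed in WT replicate 2 alone. The epithelial markers Epcam, Krt8, Krt18, Cdh1 and Vil1 summed to between 3617 and 4891 FPKM, against at most 0.75 FPKM for 5 smooth muscle markers and at most 2.69 FPKM for 5 fibroblast markers.

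Some of the 31 genes are also made outside the gut epithelium, so markers of those cells were read in the same tables. Of the islet genes, Ins1 and Ins2 were not listed in any library, Iapp had 5 to 11 counts, and Ppy had 2 counts in WT replicate 2 alone. Of the enteric neuron genes Vip was not listed, and Elavl4 was listed in WT replicate 2 alone, with 3 counts. The neuronal markers summed to 5.62 FPKM in WT replicate 1, of which Ret gave 3.75, and to at most 1.67 FPKM elsewhere. The glial markers Sox10 and Gfap were not listed. Mast cells also make serotonin in mice, and 8 mast cell markers summed to 10.8 and 25.0 FPKM in WT and 37.3 and 4.62 FPKM in KO. Most of each sum was Mcpt1 and Mcpt2, and every other mast cell marker was at most 0.73 FPKM. The 7 markers of gastric antrum and Brunner gland summed to 142 FPKM in WT replicate 1, 3.54 in WT replicate 2, and 0.11 and 0.56 in KO.

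No enteroendocrine gene differed between KO and WT past the threshold. Of the 29 genes with enough counts to test, edgeR called 0 at an adjusted p under 0.05, where it called 0.00783% of all tested genes higher and 0% lower. With p unadjusted, edgeR found Chga and Gip above WT, where it found 7.08% of all tested genes, and Ghrl below WT, where it found 8.69%, at p under 0.05. These 3 of 29 stand against 15.8% of all tested genes in either direction. DESeq2 called Chga alone (adjusted p = 0.0317), where it called 1.77% of its genes higher and 3.26% lower. The limma fits to FPKM called none of the 29. Of the 29 genes, 10 had a log2 fold change above 0 and 19 below 0, against 50.3% and 49.7% of all tested genes, with a median of -0.42 against 0.00. The KO values exceeded both WT values in 4 genes, Chga, Gip, Cck and Scg5, where 25.5% of all tested genes had that order. They were under both WT values in 7 genes, Ghrl, Pyy, Pcsk1, Cpe, Slc18a1, Scgn and Pax6, where 24.6% of all tested genes had that order. The division by sign depended on the libraries and the filter: without WT replicate 2, 20 genes were higher and 10 lower, and without KO replicate 1 both counts were 15, with 1 more gene passing the filter on low counts in each case. With at least 50 counts in 2 libraries both counts were 8. A fit that leaves out a library has 1 genotype with a single library, which is assumed to vary like the other genotype.

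**Figure D1:**
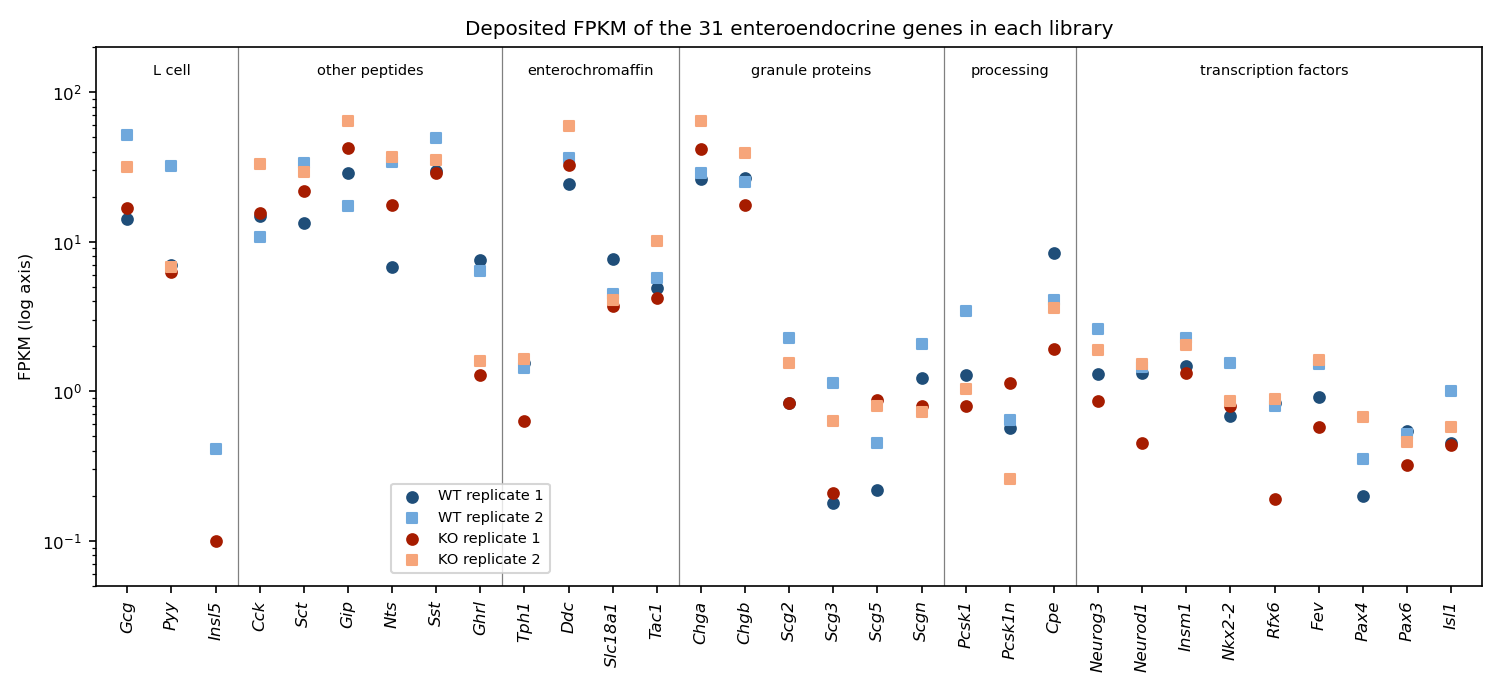
Level of each of the 31 genes in each library, in FPKM on a log axis, grouped by role (circles, replicates 1; squares, replicates 2; blue, WT; red and orange, KO); a gene not listed in a library has no point. The 2 KO points of Ghrl, at 1.29 and 1.60, lie below both WT points, at 7.48 and 6.33, while the points of Gcg and Nts of both genotypes are interleaved.

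**Figure D2:**
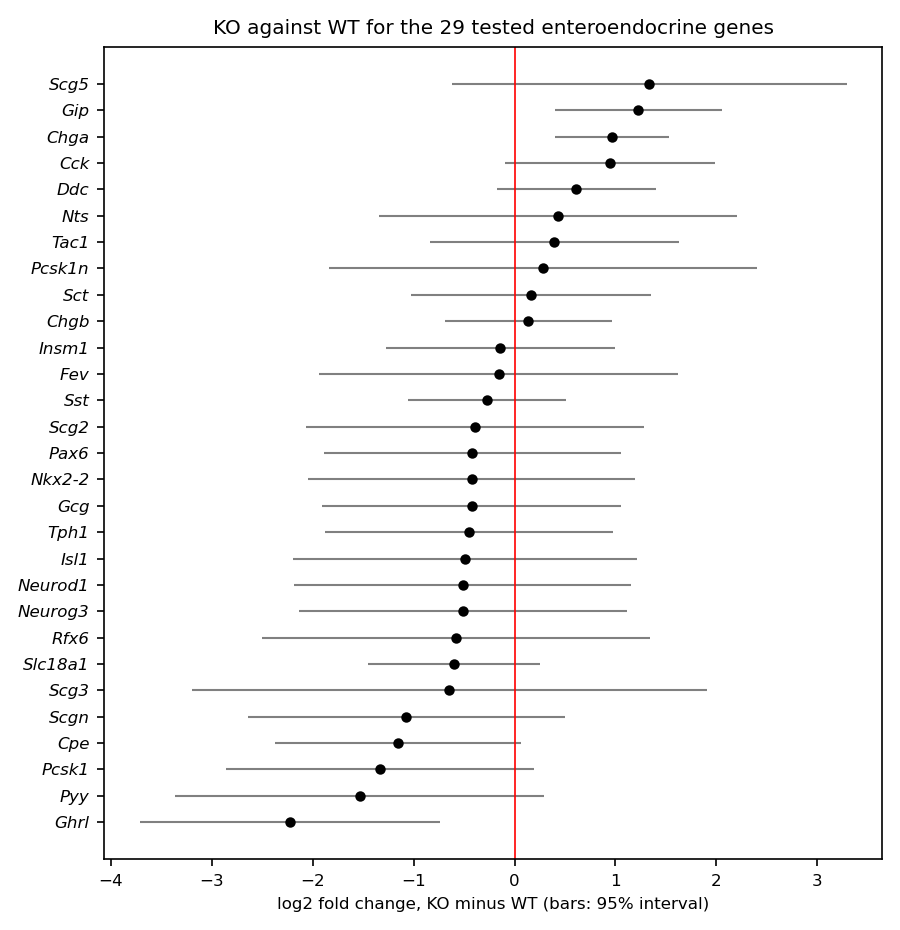
Log2 fold change of KO minus WT for the 29 tested genes, with 95% intervals from the edgeR quasi-likelihood fit. The intervals of Gip (0.40 to 2.05), Chga (0.40 to 1.53) and Ghrl (-3.71 to -0.74) do not cross 0, before any adjustment for the number of genes tested.

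Chga, Ddc, Gip, Sst and Gcg had the highest means over the 4 libraries, at 40.1, 38.1, 38.1, 35.6 and 28.6 FPKM. The 8 genes Gcg, Cck, Sct, Gip, Sst, Ddc, Chga and Chgb stood at 10 FPKM or more in every library. By contrast, Insl5, Scg5, Rfx6, Pax4 and Pax6 were under 1 FPKM in every library. The 9 peptide hormones together summed to 121 and 235 FPKM in WT and to 151 and 238 FPKM in KO. In both genotypes replicate 2 was the higher, so the groups overlapped.

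Gip (chr11:96024532-96030831 of mm10), the proximal K cell hormone that raises insulin release after a meal, was the peptide hormone furthest above its WT level in KO. It stood at 28.6 and 17.4 FPKM in WT and at 42.3 and 63.9 FPKM in KO. Every KO value was above both WT values, the lowest being WT replicate 2. The edgeR log2 fold change was 1.23 (SE 0.34, adjusted p = 0.227), or 2.34-fold, and DESeq2 gave an adjusted p of 0.0537. Without WT replicate 2 the log2 fold change was 0.92. Gip supplied 23.6% and 7.4% of the summed FPKM of the 9 hormones in WT and 28.1% and 26.8% in KO, where it ranked first in both libraries.

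Cck, the I cell hormone that contracts the gallbladder, was at 14.7 and 10.7 FPKM in WT and 15.6 and 33.2 FPKM in KO. The KO values lay above the WT values, but KO replicate 1 was only just above WT replicate 1 (10.8 against 9.42 CPM), and the difference did not pass (edgeR log2 fold change 0.95, SE 0.42, adjusted p = 0.345; 0.41 without KO replicate 2). Sct, the S cell hormone secretin, was at 13.3 and 33.4 FPKM in WT and 21.96 and 29.3 FPKM in KO, so that both KO values lay between the WT values (0.16, SE 0.48, edgeR adjusted p = 0.896). Sst, the inhibitory hormone of D cells, was the steadiest of the abundant peptides, at 29.6 and 49.1 FPKM in WT and 28.9 and 34.9 FPKM in KO (-0.27, 95% interval -1.05 to 0.51, edgeR adjusted p = 0.707).

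Ghrl (chr6:113716119-113719911), the gene of the appetite hormone ghrelin, had the lowest log2 fold change of the 29. It was counted 55 and 45 times in WT and 9 and 11 times in KO, which is 7.48 and 6.33 FPKM against 1.29 and 1.60 FPKM. The WT replicates were close to each other, as were the KO replicates, and the groups did not overlap. The level in KO was 21.4% of that in WT (edgeR log2 fold change -2.23, SE 0.605, adjusted p = 0.226; DESeq2 adjusted p = 0.104). Leaving out each library in turn gave between -2.38 and -2.08. Ghrelin cells are most numerous in the stomach, and the 7 gastric and Brunner gland markers summed to 142 and 3.54 FPKM in WT and 0.11 and 0.56 FPKM in KO. Without WT replicate 1, where those markers were highest, the log2 fold change of Ghrl was -2.10. The WT library left in that fit still had more of those markers, at 3.54 FPKM, than either KO library. The part of gastric or Brunner gland tissue in the level of Ghrl was not tested.

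Of the peptide hormones, Nts, Pyy and Gcg, all 3 of them more distal, differed most between the WT libraries. Gcg, which L cells process to GLP-1 and GLP-2, was at 14.1 and 51.6 FPKM in WT and 16.8 and 31.7 FPKM in KO. The WT values enclosed the KO values (edgeR log2 fold change -0.43, SE 0.60, adjusted p = 0.757), and without WT replicate 2 the direction turned, to 0.80. Pyy, the peptide that L cells release to slow the gut, was at 6.93 and 31.8 FPKM in WT and 6.24 and 6.74 FPKM in KO. WT replicate 1 and both KO libraries were alike, and WT replicate 2 stood 4.53-fold above WT replicate 1. Pyy had a log2 fold change of -1.53 (SE 0.74, edgeR adjusted p = 0.376), which was -0.05 without WT replicate 2. Nts, the N cell hormone neurotensin, was at 6.72 and 33.9 FPKM in WT and 17.6 and 36.8 FPKM in KO. Here WT replicate 1 was the low library (0.43, SE 0.72, edgeR adjusted p = 0.801), and the log2 fold change was -0.32 without WT replicate 1 and 2.04 without WT replicate 2. Insl5 had 4 counts in WT replicate 2 and 1 in KO replicate 1, was not listed in the other libraries and was not tested.

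Genes that mark gut regions also differed between the libraries, in an order that only some of these hormones shared. The proximal transcription factor gene Gata4 was at 40.4 and 8.25 FPKM in WT and 43.5 and 51.4 FPKM in KO. WT replicate 2 was lowest and both KO values were above both WT values, as for Gip and Cck. Lct had the same order, at 85.2 and 26.2 FPKM in WT and 103 and 155 FPKM in KO. Of the 8 small-intestinal markers, 2 had both KO values above both WT values (25%, against 25.5% of all tested genes). Apoa4 also had its lowest level in WT replicate 2, at 89.96 FPKM against 1048 to 2641 FPKM in the other libraries. Fabp6, which binds bile acids in the ileum, was at 952 and 5605 FPKM in WT and 1860 and 279 FPKM in KO, highest in WT replicate 2, as were Gcg and Pyy. The ileal bile acid transporter gene Slc10a2 was at 21.3 and 64.9 FPKM in WT and 16.3 and 2.94 FPKM in KO. In KO replicate 2, where both ileal genes were lowest, Nts was at its highest and Gcg was above both libraries of replicate 1. The part of gut region in the hormone values was not tested.

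**Figure D3:**
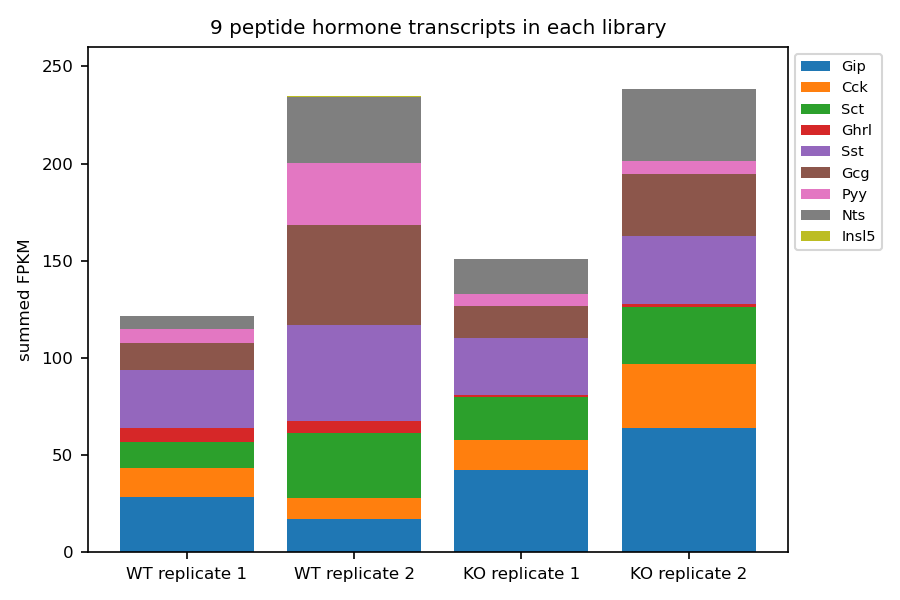
FPKM of the 9 peptide hormone genes stacked for each library. The summed level was 121 and 235 FPKM in WT and 151 and 238 FPKM in KO, and Pyy gave 13.6% of the sum in WT replicate 2 and at most 5.71% in the other libraries.

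Enterochromaffin cells make serotonin from tryptophan, and many also make substance P. Tph1, the rate-limiting enzyme gene of gut serotonin synthesis, was at 1.54 and 1.43 FPKM in WT and 0.63 and 1.65 FPKM in KO. Only KO replicate 1 was low, and without it the log2 fold change of -0.45 (SE 0.58, edgeR adjusted p = 0.734) became 0.12. The 8 mast cell markers, mostly Mcpt1 and Mcpt2, summed to 37.3 FPKM in that library and to between 4.62 and 25.0 FPKM in the others. Their part in the level of Tph1 was not tested. Ddc, the next enzyme gene, which absorptive cells also express, was at 24.1 and 36.4 FPKM in WT and 32.6 and 59.1 FPKM in KO, with overlapping groups (0.61, SE 0.32, edgeR adjusted p = 0.409). Tac1, the substance P precursor gene, was at 4.91 and 5.71 FPKM in WT and 4.17 and 10.2 FPKM in KO, so the KO values enclosed the WT values (0.40, edgeR adjusted p = 0.73). Slc18a1, which encodes the transporter that loads serotonin into granules, was at 7.60 and 4.46 FPKM in WT and 3.73 and 4.04 FPKM in KO. Both KO values were lower, WT replicate 2 only slightly above them (-0.60, SE 0.35, edgeR adjusted p = 0.449; -0.18 without WT replicate 1). Its span overlaps that of Atp6v1b2 by 503 bases, and without strand information reads there cannot be assigned with certainty.

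Of the genes for granule proteins, Chga (chr12:102554941-102565027) had the smallest p of all 29. It encodes chromogranin A, an acidic protein that helps to condense hormones in the granule. It had 752 and 812 expected counts in WT and 1212 and 1673 in KO, or 26.2 and 28.7 FPKM against 41.6 and 64.02 FPKM. The WT replicates were nearly equal and both KO libraries were above them, at 1.95-fold on average (log2 fold change 0.96, SE 0.23, edgeR adjusted p = 0.209). Leaving out each library in turn gave between 0.71 and 1.18. Chgb, the related chromogranin B gene, did not share this order, with 26.7 and 25.0 FPKM in WT and 17.7 and 38.9 FPKM in KO. Its KO values enclosed the WT values (0.14, 95% interval -0.69 to 0.96, edgeR adjusted p = 0.871).

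The secretogranin genes were low and uneven between replicates. Scg2 was at 0.84 and 2.28 FPKM in WT and 0.83 and 1.55 FPKM in KO. Scg3, whose product anchors chromogranin A to the granule membrane, was at 0.18 and 1.13 FPKM in WT and 0.21 and 0.63 FPKM in KO. In both genes the replicates 2 were the higher in each genotype and the genotypes overlapped (edgeR adjusted p = 0.81 and 0.792). Scg5, the gene of the chaperone 7B2, had only 4 and 8 counts in WT and 16 and 13 in KO (log2 fold change 1.33, SE 0.80, edgeR adjusted p = 0.459). Scgn, a calcium-binding protein gene of endocrine cells, was at 1.23 and 2.07 FPKM in WT and 0.79 and 0.73 FPKM in KO (-1.07, SE 0.64, edgeR adjusted p = 0.46).

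Of the 3 prohormone processing genes the 2 enzymes had log2 fold changes below 0 and the inhibitor above 0, and none passed. Pcsk1, which encodes the convertase that cuts prohormones in gut endocrine cells, was at 1.29 and 3.45 FPKM in WT and 0.80 and 1.04 FPKM in KO. WT replicate 2 was the high library, and without it the log2 fold change of -1.33 (SE 0.62, edgeR adjusted p = 0.36) was -0.44. Cpe, the carboxypeptidase gene that trims the cut peptides, was at 8.39 and 4.05 FPKM in WT and 1.92 and 3.62 FPKM in KO. Here WT replicate 1 was the high library (-1.16, SE 0.50, edgeR adjusted p = 0.333; -0.55 without WT replicate 1). The marker sums of gastric, neuronal and fibroblast genes were also highest in WT replicate 1, and their part in the level of Cpe was not tested. Pcsk1n, the gene of the convertase inhibitor proSAAS, was at 0.57 and 0.64 FPKM in WT and at the extremes in KO, 1.13 and 0.26 FPKM (0.28, edgeR adjusted p = 0.901). The summed level of Pcsk1, Pcsk1n and Cpe was 9.20 ± 1.49 FPKM in WT and 4.38 ± 0.76 FPKM in KO (SD, n = 2 libraries each). The KO level was 0.48 times the WT level. Cpe was the most abundant of the 3 and was highest in WT replicate 1, while Pcsk1 was highest in WT replicate 2. The sum therefore varied less between the WT libraries than either enzyme gene did, and without Cpe the genotypes overlapped. The 6 genes grouped as granule proteins, with the calcium-binding protein gene Scgn counted among them, summed to 57.5 ± 2.99 FPKM in WT and 84.3 ± 31.6 FPKM in KO (SD, n = 2 libraries each). KO replicate 1, at 61.9 FPKM, was close to both WT libraries in the granule protein sum, and without Chga the log2 ratio of 0.55 was 0.07.

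All 8 tested transcription factor genes had a log2 fold change below 0, from -0.58 to -0.14, where 49.7% of all tested genes were below 0, and none passed (edgeR adjusted p from 0.733 to 0.937). Without WT replicate 2, Neurog3, Insm1, Nkx2-2, Fev and Isl1 were above 0 (0.08 to 0.30), and without KO replicate 1, Neurod1, Insm1, Rfx6 and Fev were (0.08 to 0.35). Neurog3, which commits progenitors to the endocrine fate, was at 1.31 and 2.62 FPKM in WT and 0.86 and 1.88 FPKM in KO. In both genotypes replicate 2 had about the same excess over replicate 1 (1.99-fold and 1.95-fold), and the groups overlapped (-0.51, SE 0.66, edgeR adjusted p = 0.733). Neurod1, which acts next, was at 1.33 and 1.46 FPKM in WT and 0.45 and 1.52 FPKM in KO. Only KO replicate 1 was low, with 17 counts against 50 to 54 elsewhere, and without it the log2 fold change was 0.09. Rfx6, a regulator of incretin-producing cells, had the same shape, with 41 and 41 counts in WT, 10 in KO replicate 1 and 42 in KO replicate 2. KO replicate 1 was the lowest library for 7 of the 9 factors, Neurog3, Neurod1, Insm1, Rfx6, Fev, Pax4 and Pax6, where 29.4% of all tested genes were lowest in it.

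Insm1, a zinc finger repressor gene, had the highest mean of the factors over the 4 libraries, although Neurog3 was higher in WT replicate 2, and was at 1.48 and 2.27 FPKM in WT and 1.33 and 2.03 FPKM in KO. Fev, a factor of serotonin-making cells, was at 0.91 and 1.53 FPKM in WT and 0.58 and 1.61 FPKM in KO. Both had overlapping groups, and log2 fold changes of -0.14 and -0.16. Nkx2-2, a homeobox factor gene, was at 0.68 and 1.55 FPKM in WT and 0.80 and 0.86 FPKM in KO, and Isl1, a LIM homeobox gene, was at 0.45 and 1.01 FPKM in WT and 0.44 and 0.58 FPKM in KO. WT replicate 2 was the high library for both, and without it their log2 fold changes were 0.30 and 0.23. Pax6 was at 0.54 and 0.52 FPKM in WT and 0.32 and 0.46 FPKM in KO (-0.42, edgeR adjusted p = 0.759). Its span overlaps Elp4 by 1091 bases. Pax4 was not tested: it had 4 and 7 counts in WT and 12 in KO replicate 2, and KO replicate 1 did not list it.

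A larger share of these genes than of all genes differed between replicates of a genotype, which is given as a description with no test. WT replicate 2 was higher than WT replicate 1 for 21 of the 29 tested genes (72.4%, against 50.4% of all tested genes), and KO replicate 2 was higher than KO replicate 1 for 23 (79.3%, against 46.3%). In 16 genes (55.2%, against 19% of all tested genes) both held. Differences of more than 2-fold between replicates were found for 11 of the 29 genes in WT and 7 in KO (37.9% and 24.1%, against 13.9% and 10.9% of all tested genes). Scg3 (6.24-fold), Nts (5.02-fold), Pyy (4.53-fold) and Gcg (3.64-fold) led in WT, and Rfx6 (4.19-fold), Neurod1 (3.05-fold) and Tph1 (2.79-fold) in KO, with Pcsk1n in the other direction at 0.21 times. Many of these rest on few reads. Scg3 had 6 and 37 counts in WT, and in KO Pcsk1n had 38 and 8, Rfx6 10 and 42, Neurod1 17 and 52, and Tph1 35 and 98. Nts, with 122 and 606 counts in WT, and Gcg, with 229 and 824, had more. The shares of all tested genes were not matched to the 29 genes for level, so low counts may make up part of the gap. The replicates 2 were the libraries with Y-linked transcripts, and the part of this difference in the replicate spread was not tested.

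**Figure D4:**
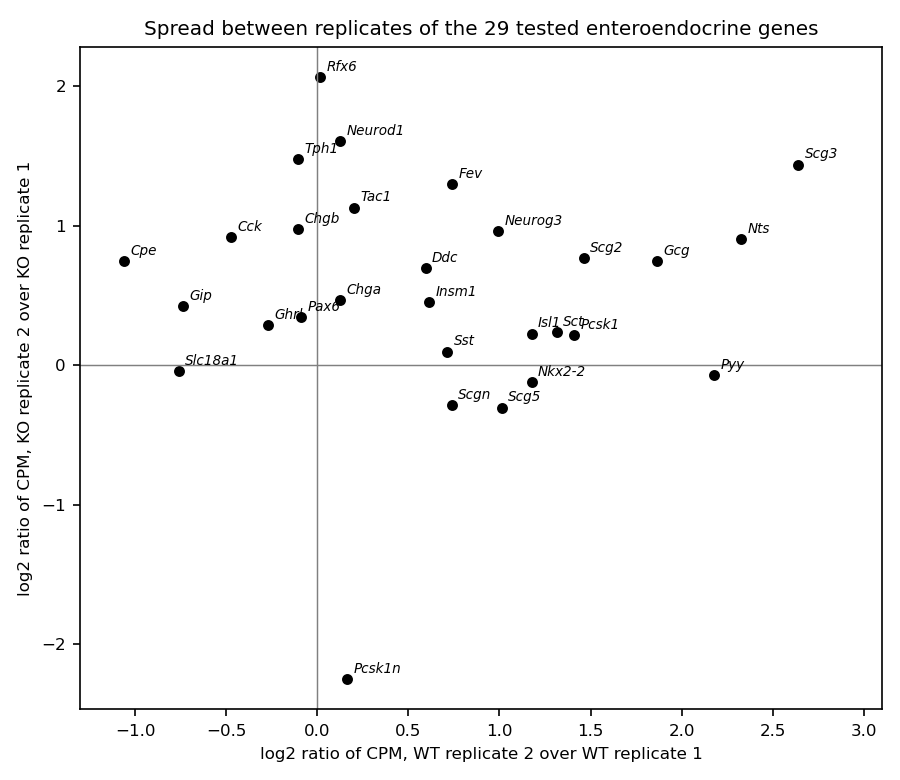
Log2 ratio of CPM between the replicates of WT (x axis) and of KO (y axis) for the 29 tested genes. The 16 points above 0 on both axes are genes higher in replicate 2 of both genotypes, Nts, Gcg and Scg3 lie far to the right and Pcsk1n, at 0.21 times in KO, lies alone at the bottom.

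Some of these genes carry the same short element upstream of the start of transcription. Of 35 start sites of 27 of the genes in the RefSeq table (build GRCm38.p6), 5 had the palindrome TGACGTCA, the cyclic AMP response element, within the 250 bases before the start (14.3%, against 1.55% of 32851 start sites of all genes). The genes were Chgb, Scg2, Pcsk1, Sst and Pax6, and the element began between 48 and 78 bases before the start. For Sst and Pcsk1 the start site used lies inside the span of the gene (chr16:23889573-23891342 and chr13:75089420-75134861), and so does the window shown. The last 100 bases before the start are shown 5′ to 3′ for these 5 genes, with the element in capitals. They are shown because 4 of them encode hormone or granule proteins.
Sst, chr16:23890845-23890944, minus strand: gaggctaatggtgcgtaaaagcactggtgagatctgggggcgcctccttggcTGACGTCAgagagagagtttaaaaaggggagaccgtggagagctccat
Chgb, chr2:132781542-132781641, plus strand: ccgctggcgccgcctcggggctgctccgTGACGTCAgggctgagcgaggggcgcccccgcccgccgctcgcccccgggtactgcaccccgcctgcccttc
Scg2, chr1:79440027-79440126, minus strand: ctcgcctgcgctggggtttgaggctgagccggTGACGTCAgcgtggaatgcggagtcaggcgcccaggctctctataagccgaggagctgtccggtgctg
Pcsk1, chr13:75089757-75089856, plus strand: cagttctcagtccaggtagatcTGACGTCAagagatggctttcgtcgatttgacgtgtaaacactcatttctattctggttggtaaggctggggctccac
Pax6, chr2:105668796-105668895, plus strand: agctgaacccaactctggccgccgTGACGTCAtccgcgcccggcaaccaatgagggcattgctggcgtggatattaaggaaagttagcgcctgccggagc
The log2 fold changes of these genes were -0.27 for Sst, 0.14 for Chgb, -0.39 for Scg2, -1.33 for Pcsk1 and -0.42 for Pax6, and none passed the edgeR test (adjusted p from 0.36 to 0.871).

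The E-box forms CAGATG and CAGCTG, letters that NEUROG3 and NEUROD1 can bind, were searched for on both strands of the same windows, and no matches overlapped there. They were found at 12 of the 35 start sites (34.3%, against 25.5% of all). CAGATG was found at 6 start sites (17.1%, against 14.4% of all). CAGCTG was found at 7 start sites (20%, against 13% of all), 1 each of Chga, Gip, Ghrl, Isl1, Neurog3, Nts and Sct. The 250 bases before the start are shown for Chga and Gip, the 2 genes with the smallest p among those above WT, with CAGCTG in capitals. In Chga it began 179 and 116 bases before the start, and in Gip 46 bases before it. The start site used for Gip lies inside the gene span given above, which begins at 96024532, so its window runs into that span.
Chga, chr12:102554691-102554940, plus strand: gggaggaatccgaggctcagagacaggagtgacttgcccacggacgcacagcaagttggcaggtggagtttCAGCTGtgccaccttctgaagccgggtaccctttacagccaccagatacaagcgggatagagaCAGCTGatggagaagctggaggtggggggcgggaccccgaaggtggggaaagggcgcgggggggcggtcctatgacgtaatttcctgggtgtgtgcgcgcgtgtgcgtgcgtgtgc
Gip, chr11:96024295-96024544, plus strand: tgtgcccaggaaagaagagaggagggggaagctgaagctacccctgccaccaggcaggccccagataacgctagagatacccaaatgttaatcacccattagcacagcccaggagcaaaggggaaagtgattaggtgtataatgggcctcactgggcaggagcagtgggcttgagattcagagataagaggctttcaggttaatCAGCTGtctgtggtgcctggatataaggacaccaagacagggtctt
A match describes letters in a window and not a site in use.

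Genes that work beside the 31 were read from 7 lists of 87 symbols, of which 75 were listed in a library and 43 were tested. edgeR called 0 of the 43 and found 8 at an unadjusted p under 0.05, all below WT (8.69% of all tested genes were below WT at that cut). In all, 34 of 43 had a log2 fold change below 0 (79.1%, against 49.7% of all tested genes), with a median of -0.46. The KO values were under both WT values in 17 of 43 (39.5%, against 24.6%) and exceeded both in 3 (6.98%, against 25.5%).

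Exocytosis genes made up a large part of these. Of 12 tested, 11 had a log2 fold change below 0 and in 7 the KO values were under both WT values, where 24.6% of all tested genes had that order, with a median of -0.86. Neurons use the same machinery, and the enteric neuron markers summed to 5.62 and 1.67 FPKM in WT and 0.94 and 0.54 FPKM in KO. Ret gave 3.75 and 0.91 FPKM of the WT sums and had a log2 fold change of -3.10 (edgeR adjusted p = 0.204). Tubb3, the only other neuron marker tested, had a log2 fold change of -0.39 (edgeR adjusted p = 0.911). The part of neurons in the exocytosis values was not tested. Ptprn2, a granule membrane protein gene, had 397 and 692 counts in WT and 169 and 224 in KO (-1.39, SE 0.35, edgeR adjusted p = 0.211). Cplx2, a complexin gene that clamps vesicle fusion, had 215 and 135 counts in WT and 51 and 60 in KO (-1.57, SE 0.42, edgeR adjusted p = 0.222). Syt7, a calcium sensor gene of secretion, had 269 and 590 counts in WT and 162 and 171 in KO (-1.29, SE 0.42, edgeR adjusted p = 0.266). In each of the 3 the groups did not overlap. Of the other processing genes, Cpd, a carboxypeptidase D gene with a wide tissue range, had 3554 and 3431 counts in WT and 1679 and 1844 in KO (-0.91, SE 0.20, edgeR adjusted p = 0.195). Pam, which encodes the enzyme that amidates peptide ends, had 502 and 261 counts in WT and 130 and 183 in KO (-1.20, SE 0.40, edgeR adjusted p = 0.27). Ica1 had a log2 fold change of -0.48 (edgeR adjusted p = 0.455), and Resp18, with 14 and 17 counts in WT and 23 and 22 in KO, of 0.61 (edgeR adjusted p = 0.665). Pcsk2, the second prohormone convertase gene, was not listed in any library.

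**Figure D5:**
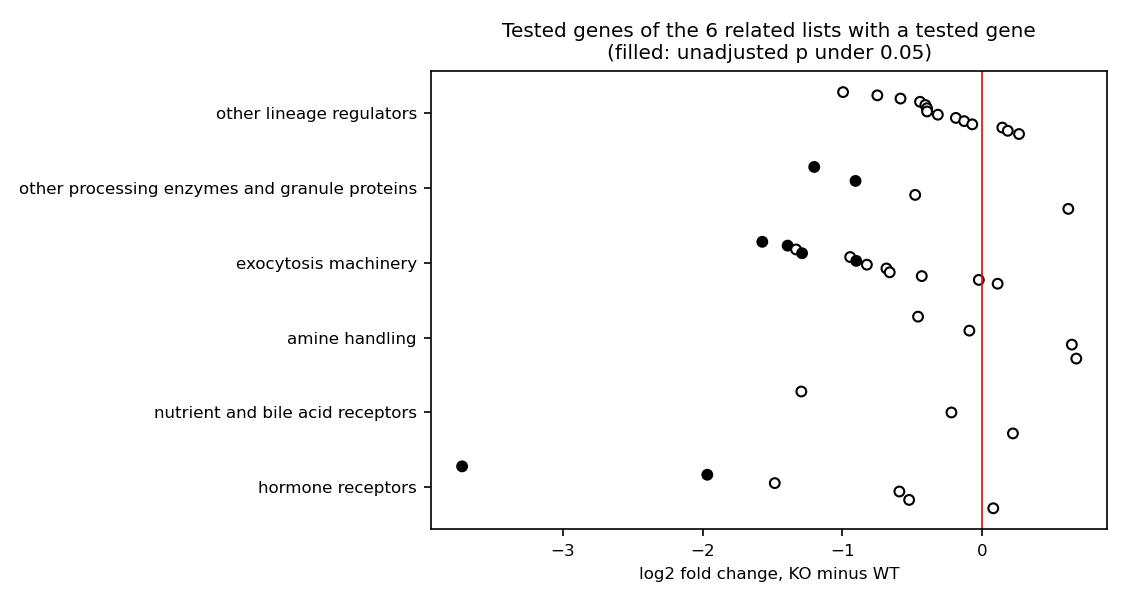
Log2 fold change of KO minus WT for the 43 tested genes of the related lists, 1 point a gene, filled where the unadjusted edgeR p was under 0.05. All 8 filled points lie below 0, and 11 of the 12 exocytosis genes do.

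Receptor genes were sparse. Of the 20 receptors for these hormones 12 were listed and 6 tested, and 5 of the 6 had a log2 fold change below 0. The PYY receptor gene Npy2r had 20 and 11 counts in WT and 1 in each KO library (edgeR log2 fold change -3.72, SE 1.002, adjusted p = 0.226). The somatostatin receptor gene Sstr3 had 15 and 27 counts in WT and 5 in each KO library (-1.97, edgeR adjusted p = 0.307), and the serotonin receptor gene Htr4 had 53 and 98 in WT and 15 and 36 in KO (-1.48, edgeR adjusted p = 0.347). Of 12 nutrient and bile acid receptors 3 were tested. Ffar2, a receptor gene for short-chain fatty acids, had 49 and 86 counts in WT and 25 and 27 in KO (-1.29, SE 0.56, edgeR adjusted p = 0.337), Lpar5 had a log2 fold change of 0.22 and Ffar4 of -0.22.

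Among 4 tested genes of amine handling, Maoa, which breaks serotonin down, stood at 138 and 168 FPKM in WT and 222 and 245 FPKM in KO (edgeR log2 fold change 0.64, SE 0.27, adjusted p = 0.326). Slc6a4, the serotonin transporter gene, was at 26.98 and 21.9 FPKM in WT and 16.9 and 17.9 FPKM in KO (-0.46, SE 0.20, edgeR adjusted p = 0.34). Neither group pair overlapped. Gch1 had overlapping groups (0.67, edgeR adjusted p = 0.538). Of 14 tested lineage regulators outside the 31 genes, 11 had a log2 fold change below 0. Foxa2 had 107 and 142 counts in WT and 82 and 36 in KO (-0.996, SE 0.53, edgeR adjusted p = 0.413), Sox4 had a log2 fold change of -0.59 and Rfx3 of -0.40. Of the 8 other peptide genes none was tested, and Gast and Nmu were not listed.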

How the data were processed

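Per the submitters' processing notes, Bowtie2 2.2.5, RSEM 1.2.12 and build mm10 were used, in roles not stated. The deposited tables, 1 a library, hold RSEM expected counts and FPKM per the file headers. The tables list genes from 0.01 FPKM, so an absent gene is called not listed and entered the fits as 0. Tables were joined by gene identifier (pandas 2.3.3), and 1 row without a gene per library, at most 0.000233% of counts, was left out. Expected counts were rounded and the genotypes compared by the quasi-likelihood test of edgeR 4.0.16 (R 4.3.3), with TMM scaling, the filterByExpr filter and Benjamini-Hochberg adjustment over 12769 genes. Insl5 and Pax4 did not pass the filter. CPM carry the TMM factors. Alternatives included DESeq2 1.42.0 and limma 3.58.1 on log2(FPKM + 1) and log2(FPKM + 0.1). On simulated counts of this comparison over 12561 genes, 3 of 59 genes changed 2-fold, 29 of 48 changed 4-fold and 40 of 42 changed 16-fold were called, with 8 false calls.

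The genes and lists were chosen with earlier results of these data known. Genes given in full were the hormones listed in all 4 libraries, Neurog3, Neurod1, Chga, Chgb, the 5 with the smallest p in each direction, and the 3 with the smallest p of each related list. Others were named after their values were seen. Promoter windows are RefSeq sequence (GRCm38.p6), the build of mm10. No source used here states the strandedness of the counting. In the marker lists, 1 gene is not reported here.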

Additional observations from a re-analysis of the deposited data

How the results depend on the processing

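Over all genes edgeR called 1 higher and 0 lower. Library size alone gave 0 higher, no filter 19 and 8, DESeq2 235 and 432, limma 0 higher at both pseudocounts, and leaving out each library between 0 and 71 higher and between 0 and 299 lower, the most without WT replicate 2. With the replicate number as a block edgeR called 46 and 70. The labels do not tie the numbers to a litter or day, and deviations of same-numbered libraries correlated at -0.12 across genes. In both genotypes the number also goes with Xist (replicate 1) and Y-linked transcripts (replicate 2), so the block takes up that difference too. A crossed block, chosen after seeing the data, called 65 and 99. Among the 31 genes no alternative called any but Chga, 1 gene called higher by DESeq2 (log2 fold change 0.96). The counts of 10 higher and 19 lower ranged from 7 to 20 and from 10 to 22 when a library was left out (20 and 10 without WT replicate 2), and 8 were higher and 8 lower with at least 50 counts in 2 libraries, which tested fewer genes. Without the most abundant gene the summed enterochromaffin log2 ratio of 0.43 was -0.07 and that of granule proteins 0.07. Of the 29 log2 fold changes, 17 changed sign when a library was left out: Chgb from -0.44 to 0.55, Fev from -0.94 to 0.35, Gcg from -1.09 to 0.80, Insm1 from -0.43 to 0.22, Isl1 from -0.98 to 0.23, Neurod1 from -1.53 to 0.09, Neurog3 from -1.07 to 0.08, Nkx2-2 from -0.91 to 0.30, Nts from -0.32 to 2.04, Pcsk1n from -1.22 to 1.0, Rfx6 from -1.94 to 0.12, Scg2 from -0.96 to 0.54, Scg3 from -1.53 to 1.2, Sct from -0.36 to 0.98, Sst from -0.60 to 0.15, Tac1 from -0.28 to 0.86 and Tph1 from -1.37 to 0.12. The cause was not tested. The inhibitor gene Pcsk1n also turned under limma with a pseudocount of 0.1 (-0.08) and under the replicate block (-0.05). Insl5 and Pax4, with at most 4 and 12 counts in a library, were too low to test.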
